A study of Populus qamdoensis and Populus schneideri with 18 samples.

Results

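Leaves of *Populus qamdoensis* and of *Populus schneideri*, both grown as cuttings under green film (GF), were compared across all genes of the deposited table. The comparison holds 6 of the 18 leaf libraries of the series, 3 of *P. qamdoensis* and 3 of *P. schneideri*, chosen by the species and the light quality in their labels. The other 12 libraries are of the same species under blue film (BF) and transparent colorless film (WF), with 3 libraries for each species and film. *P. qamdoensis* is a poplar of high elevations in Qamdo, Tibet. Its cuttings came from a natural forest stand kept by cutting propagation, and leaves of 3 plants were sampled per film. For *P. schneideri* the labels give only leaf, cutting and green quality, so the green film was inferred from that wording, and the origin of its plants and their days under the film are not known. No source used here says whether its libraries came from separate plants, so the p-values measure the spread between these libraries, which may in part be technical.

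Colored films change the share of blue, green, red and far-red light that reaches the leaf. Plants sense blue light through cryptochromes and red and far-red light through phytochromes. In the dark the ubiquitin ligase COP1 removes transcription factors such as HY5, and the PIF factors promote elongation until phytochromes inactivate them. Related poplars also differ from each other regardless of light, in the genes they carry and in how strongly each is used. A comparison of species under a single film holds such differences together with any difference in their response to that film. The film response was therefore looked at by setting the same species difference under WF and BF beside it.

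Reads of both species had been compared with the genome of *P. yunnanensis*, another poplar. Expression is given as FPKM, that is fragments per length of the gene and per total of fragments mapped, so that levels can be compared between genes. A gene that has diverged from *P. yunnanensis* in 1 of the species, or that this species lacks, loses reads there, so sequence divergence and lower expression cannot be told apart in any value below. Of the 39194 genes in the table, 7511 were listed at 0 in all 6 GF libraries and another 7789 averaged below 0.5 FPKM. The other 23894 were tested on log2(FPKM + 1). A gene counts as called when limma gave a fold change of 1.5 or more on that scale together with a Benjamini-Hochberg adjusted p below 0.01. Log2 fold changes are *P. qamdoensis* minus *P. schneideri* and understate the change of genes with low FPKM.

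The 3 *P. qamdoensis* libraries were more alike than the 3 *P. schneideri* libraries. Pearson's r across the tested genes was 0.980 to 0.990 between *P. qamdoensis* libraries, 0.951 to 0.978 between *P. schneideri* libraries and 0.917 to 0.945 between species. The median standard deviation of a gene's log2 values was 0.131 between *P. qamdoensis* libraries and 0.206 between those of *P. schneideri*. The first principal component, with 61.8% of the variance, placed the *P. qamdoensis* libraries at 33.2 or above and the *P. schneideri* libraries at -36.1 or below. The second, with 20.6%, spread the *P. schneideri* libraries between -43.4 and 40.7. The label leaf was checked with 3 antenna protein genes, which encode the light-harvesting proteins of green tissue. Together they reached 371, 431 and 328 FPKM in *P. qamdoensis* and 817, 332 and 292 FPKM in *P. schneideri*. All 3 antenna genes were therefore high in every library, as in green leaf. The protochlorophyllide reductase gene Pyun01G038270, also set for this check, was much lower. It had 11.7, 21.8 and 11.8 FPKM in *P. qamdoensis*, against 42.1, 14.4 and 8.24 FPKM in *P. schneideri*. The check thus rests on the antenna genes.

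Under GF, 1320 of the 23894 tested genes were called, which is 5.52% (712 higher and 608 lower in *P. qamdoensis*). A further measure needs no model: in 7411 genes, or 31% of those tested, the 3 values of a species all lay above the 3 values of the other. All 1320 called genes were among them. The median log2 fold change was 1.40 over the genes called higher and -1.31 over those called lower, against 0.01 over all tested genes. Without *P. qamdoensis* library 1 the count fell to 557, without *P. qamdoensis* library 3 to 576 and without *P. schneideri* library 2 to 643, and 507 of the 1320 were called in each of the 6 fits that left out 1 library. No called gene changed direction under any alternative that was run. Since their libraries do not overlap, leaving out a library or changing the pseudocount, filter or spread estimate could not reverse them. In an exact permutation test of a single gene, 3 libraries against 3 give no p below 0.1.

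**Figure D1:**
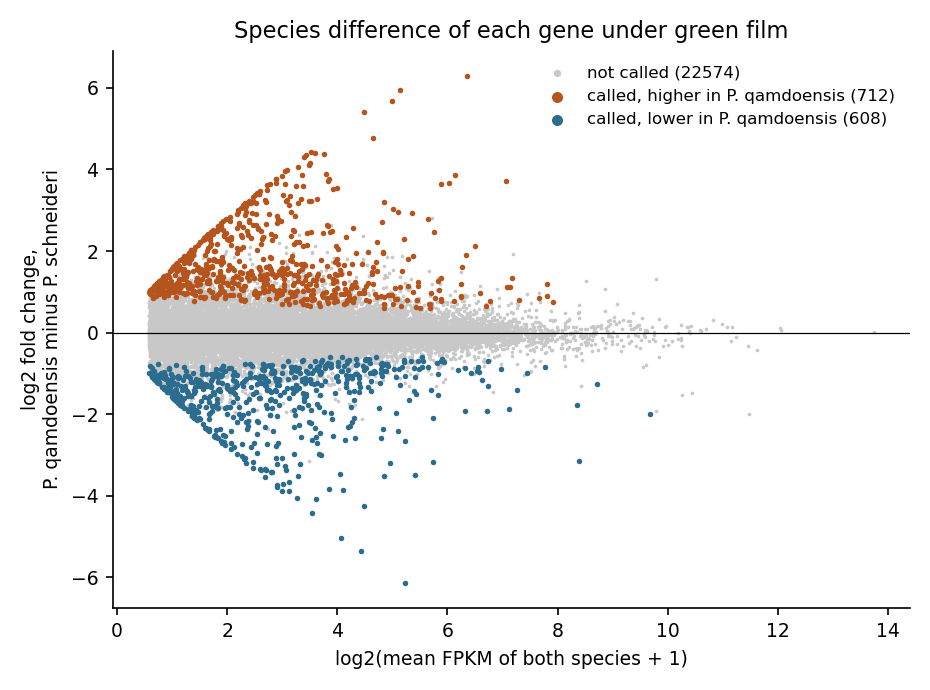
Each point is 1 of 23894 tested genes, with the log2 of its mean FPKM over both species plus 1 on the x axis and the log2 fold change (*P. qamdoensis* minus *P. schneideri*, on the log2(FPKM + 1) scale) on the y axis. The 712 called genes above 0 and the 608 below fan out at low levels, where the straight outer edges are genes at or near 0 in 1 of the species, and few called genes lie at the right.

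Many of the called genes were nearly silent in 1 of the species. The mean was at least 1 FPKM in both species for 696 called genes, 355 higher and 341 lower in *P. qamdoensis*. It was below 1 FPKM in *P. schneideri* for 358 called genes and below 1 FPKM in *P. qamdoensis* for 268. In the whole table, 77 genes had at least 1 FPKM in each *P. qamdoensis* library and were listed at 0 in all 3 *P. schneideri* libraries, and 67 genes showed the reverse. The share of genes called was 7.95% between 1 and 5 FPKM and 2.92% at 100 FPKM and above. Of the 806 tested genes that the authors listed as new, that is absent from the *P. yunnanensis* annotation, 17.1% were called, against 5.12% of the 23088 annotated ones. If the new genes were found from reads of these libraries, genes expressed in 1 species alone could enter more easily. The part of this in the higher share was not tested.

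Called genes also lay beside each other in the numbering of the identifiers. Among the 1182 called genes with a *P. yunnanensis* identifier and a next tested gene, 11.2% were followed by a gene called in the same direction and 3.38% by a gene called in the opposite one. For comparison, 2.98% of all tested genes were called higher and 2.54% lower. The longest such runs held 7, 6 and 5 genes, all higher in *P. qamdoensis*. Neighbouring copies of a gene family can share reads, and how the authors' counting split such reads is not given in the sources used here.

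The largest differences were all-or-nothing in appearance. Pyun16G000930, a gene of the plant-pathogen interaction pathway in the study's annotation, had 220.0, 118 and 145 FPKM in *P. qamdoensis*, against 1.10, 0.926 and 0.980 FPKM in *P. schneideri* (log2 fold change 6.29, SE 0.21, adjusted p = 9.46e-06). Pyun12G000510 had 79.8, 66.3 and 58.3 FPKM in *P. qamdoensis*, against 0.0598, 0.0704 and 0.229 FPKM in *P. schneideri* (log2 fold change 5.94, SE 0.15). In the opposite direction, Pyun10G018510 had 0.0246, 0.0508 and 0 FPKM in *P. qamdoensis*, against 94.5, 75.5 and 49.3 FPKM in *P. schneideri* (log2 fold change -6.13, SE 0.22). Its neighbour in the numbering, Pyun10G018500, was listed at 0 in the 3 *P. qamdoensis* libraries and had 48.5, 46.3 and 28.8 FPKM in *P. schneideri*. The last 3 of these genes carry no annotation in the sources used here. In each of the 4 genes the lowest library of the higher species stood more than 20 FPKM above every library of the other.

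Genes highly expressed in both species were seldom called. Of 1833 genes that averaged 50 FPKM or more in both species, 31 were called, 14 higher and 17 lower in *P. qamdoensis*, which is 1.69%, beside 5.52% of all tested genes. This filter leaves out abundant genes that are nearly silent in 1 species, which can lower the share by itself. By the mean over both species, 3.17% were called between 20 and 100 FPKM and 2.92% at 100 FPKM and above. The largest difference among those called was in a gene without annotation, which had 56.7, 121 and 41.0 FPKM in *P. qamdoensis*, against 530, 723 and 541 FPKM in *P. schneideri* (log2 fold change -3.15, SE 0.36, adjusted p = 0.0012). Without *P. schneideri* library 2 its adjusted p was 0.0102. The most abundant of the 4 genes the naming rule selects here had 274, 397 and 309 FPKM in *P. qamdoensis*, against 969, 1619 and 1342 FPKM in *P. schneideri* (log2 fold change -1.99, SE 0.24). Its adjusted p was 0.0017 with all libraries, 0.0172 without *P. qamdoensis* library 1, 0.0158 without *P. qamdoensis* library 3 and 0.0101 without *P. schneideri* library 2. Of the abundant genes called higher, the 2 of largest change had log2 fold changes of 1.35 and 1.19. Uncalled abundant genes could exceed them: Pyun15G006440 of the ABC transporter list, chosen after its values were seen, had 282, 169 and 233 FPKM in *P. qamdoensis*, against 41.1, 44.5 and 103 FPKM in *P. schneideri*, without overlap (log2 fold change 1.94, SE 0.35, adjusted p = 0.0105). For the 2 called genes the adjusted p lay between 0.0043 and 0.0363 and between 0.00205 and 0.0133 when 1 library was left out. The first lost its call without library 1 or 3 of *P. qamdoensis* or library 1 or 2 of *P. schneideri*, and the second without *P. qamdoensis* library 1 or *P. schneideri* library 2.

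The annotated genes come from the study's supplementary gene lists, 254 genes in all, which the study had picked because they differed between films in *P. qamdoensis*, GF libraries included. They are thus not a neutral sample, and their counts stand beside those of all genes as a description. Genes silent in *P. qamdoensis* could not enter the lists, which can favor calls higher in that species. Of the 234 tested, 17 were called higher and 15 lower in *P. qamdoensis*, with a median log2 fold change of 0.01. Over all tested genes 2.98% were called higher and 2.54% lower, the shares against which the counts of each list below are to be read.

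Of the 8 genes of light perception and signaling none was called. A count of 0 in so small a group is near the background of 5.52% called over all tested genes. The blue light receptor CRY1 had 80.9, 70.1 and 77.7 FPKM in *P. qamdoensis*, against 54.3, 59.1 and 67.9 FPKM in *P. schneideri*, without overlap (log2 fold change 0.33, SE 0.12, adjusted p = 0.123). HY5, the transcription factor that promotes light responses, had 87.5, 84.7 and 105 FPKM in *P. qamdoensis*, against 60.1, 71.6 and 97.4 FPKM in *P. schneideri*, and the ranges overlapped (log2 fold change 0.29, SE 0.18). CRY1 and HY5 were the most abundant of the 8.

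The remaining light signaling genes stood between 5 and 28 FPKM. COP1 had 19.6, 16.9 and 19.3 FPKM in *P. qamdoensis*, against 11.6, 18.3 and 21.6 FPKM in *P. schneideri* (log2 fold change 0.15, SE 0.21). That sign rested on *P. schneideri* library 1, since the log2 fold change was -0.092 without it. HYH, the close relative of HY5, had 24.7, 27.9 and 21.9 FPKM in *P. qamdoensis*, against 25.5, 27.2 and 26.4 FPKM in *P. schneideri* (log2 fold change -0.089, SE 0.11).

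The red and far-red light receptor PHYB had 8.54, 8.45 and 6.75 FPKM in *P. qamdoensis*, against 8.18, 10.4 and 9.03 FPKM in *P. schneideri* (log2 fold change -0.20, SE 0.14). The phytochrome-interacting factor PIF4 had 23.8, 24.3 and 20.8 FPKM in *P. qamdoensis*, against 17.8, 22.8 and 19.3 FPKM in *P. schneideri* (log2 fold change 0.20, SE 0.12). Differences of these receptors and their partners were thus at most 0.33 in size on the log2 scale. For the 2 PIF3 genes the log2 fold changes were -0.22 (Pyun14G009100, overlapping) and -0.28 (Pyun14G008760, not overlapping), with SEs of 0.16 and 0.13. Adjusted p-values of the 8 genes ran from 0.123 to 0.72, which does not show that the species are alike.

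**Figure D2:**
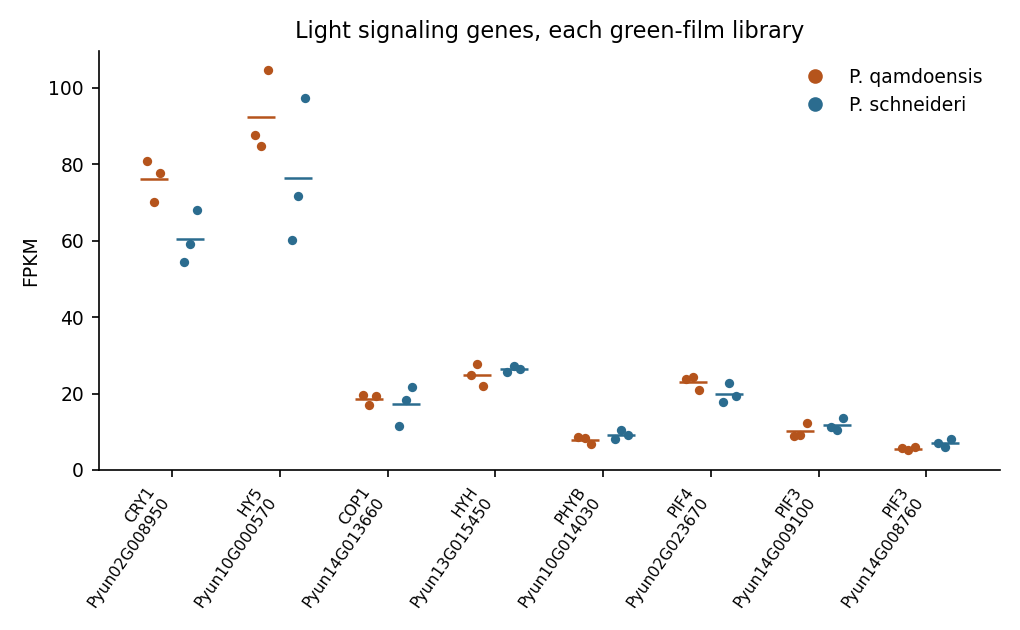
FPKM of the 8 light signaling genes in each GF library, *P. qamdoensis* (brown) left of *P. schneideri* (blue) for each gene; points are libraries and bars their means. Only CRY1 and the PIF3 gene Pyun14G008760 separate the species, and none of the 8 was called.

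Among the groups whose genes carry names, glucan hydrolases had the most calls. The group comprises putative glycoside hydrolases, beta-glucosidases, endoglucanases and glucan endo-1,3-beta-glucosidases. Such enzymes cut the bonds of glucose units in glucans or glucosides. Of its 18 genes, 16 were tested, 4 were called higher and 0 lower, against 2.98% of all tested genes called higher. The 4 called genes are putative glycoside hydrolases and a beta-glucosidase, and no endoglucanase or glucan endo-1,3-beta-glucosidase was called. These 4 averaged 0.145 FPKM or less in *P. schneideri*, so they passed the filter through *P. qamdoensis*. As the list was picked in *P. qamdoensis*, its choice favors this direction, and the count is a description only. The median log2 fold change was 0.86, and 13 of the 16 were positive. In 9 of the 16 all *P. qamdoensis* libraries lay above all *P. schneideri* libraries, a pattern that 16.6% of all tested genes showed.

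The strongest of them was the putative glycoside hydrolase Pyun19G002470, with 10.6, 10.2 and 6.45 FPKM in *P. qamdoensis*, against 0.148, 0.0118 and 0 FPKM in *P. schneideri* (log2 fold change 3.23, SE 0.20, adjusted p = 5.52e-05). The neighbouring glycoside hydrolases Pyun01G021550 and Pyun01G021560 behaved alike at lower levels. The first had 2.87, 3.96 and 2.60 FPKM in *P. qamdoensis*, against 0.200, 0 and 0 FPKM in *P. schneideri* (log2 fold change 1.95, SE 0.18). For the second, 3.03, 3.24 and 2.58 FPKM in *P. qamdoensis* stood against 0.353, 0 and 0.0826 FPKM in *P. schneideri* (log2 fold change 1.79, SE 0.17). Transcripts of these genes were thus detected in every *P. qamdoensis* library and were listed at or near 0 FPKM in *P. schneideri*.

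The beta-glucosidase Pyun04G009930 had 1.86, 2.13 and 1.23 FPKM in *P. qamdoensis*, against 0.0469, 0 and 0.0170 FPKM in *P. schneideri* (log2 fold change 1.41, SE 0.17, adjusted p = 0.0016). Its adjusted p was 0.0135 without *P. qamdoensis* library 1 and 0.0112 without *P. schneideri* library 2. A further pair, chosen after their values were seen, missed the threshold although they were listed at 0 in all 3 *P. schneideri* libraries: beta-glucosidase 12-like Pyun01G021350 (1.73, 2.03 and 0.699 FPKM in *P. qamdoensis*, adjusted p = 0.0101) and beta-glucosidase 12 Pyun04G009900 (1.76, 1.48 and 0.526 FPKM in *P. qamdoensis*, adjusted p = 0.0176). Both passed without *P. qamdoensis* library 3, at adjusted p-values of 0.0038 and 0.00551. Several of these genes are near neighbours in the numbering, so reads shared between copies may link their values.

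The 4 called hydrolases are also among the 5 of 13 tested genes called higher in the cyanoamino acid metabolism list, in which 1 gene was called lower. That gene, Pyun16G001880, had 12.8, 5.82 and 9.92 FPKM in *P. qamdoensis*, against 74.5, 69.7 and 141 FPKM in *P. schneideri* (log2 fold change -3.17, SE 0.33, adjusted p = 0.000738).

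Sucrose and starch enzymes had no call among 9 tested genes, with log2 fold changes from -0.68 to 1.94 and a median of -0.39, which was -0.22 without *P. qamdoensis* library 3 and -0.090 without *P. schneideri* library 2. With 5.52% of all tested genes called, 0 of 9 is near the background. The highest belonged to sucrose synthase 6 (Pyun04G007170), which splits sucrose for use in sink tissue and is named here after its values were seen. It had 8.69, 4.64 and 8.37 FPKM in *P. qamdoensis*, against 0.428, 0.617 and 2.95 FPKM in *P. schneideri*, without overlap (SE 0.40, adjusted p = 0.0177). Without *P. schneideri* library 3 the adjusted p was 0.00174. Among other genes of the study's starch section, the glycosyltransferase family 64 gene Pyun10G021780 rose, with 17.3, 11.5 and 13.5 FPKM in *P. qamdoensis*, against 2.01, 0.0250 and 0.284 FPKM in *P. schneideri* (log2 fold change 3.24, SE 0.38, adjusted p = 0.00135). Its adjusted p was 0.0103 without *P. qamdoensis* library 1 and 0.0109 with a pseudocount of 0.1.

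Genes of defense differed in both directions. TMV resistance protein N genes belong to the family of intracellular immune receptors that recognise pathogens. Pyun19G002000 had 0.123, 0.238 and 0.111 FPKM in *P. qamdoensis*, against 3.40, 2.85 and 2.87 FPKM in *P. schneideri* (log2 fold change -1.80, SE 0.14, adjusted p = 0.000204). Pyun19G001430, a gene of the same name, had 5.03, 4.95 and 5.10 FPKM in *P. qamdoensis*, against 2.10, 2.59 and 2.73 FPKM in *P. schneideri* (log2 fold change 0.80, SE 0.13, adjusted p = 0.00756). The call of Pyun19G001430 was lost whichever of the 6 libraries was left out, with adjusted p-values from 0.0112 to 0.0481. Of the 7 tested genes of this group these were the only calls.

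The plant-pathogen interaction list had 3 genes called higher and 2 lower among 23 tested. Its median log2 fold change of 0.18 was unstable, at 0.45 and 0.088 without *P. qamdoensis* library 2 or 3, 0.11 without library 1, and 0.044 and 0.27 without *P. schneideri* library 2 or 3. Its top gene is Pyun16G000930, given above, and at the other end stood Pyun11G006910. It had 1.70, 0.575 and 0.590 FPKM in *P. qamdoensis*, against 26.4, 24.0 and 27.3 FPKM in *P. schneideri* (log2 fold change -3.83, SE 0.22, adjusted p = 4.33e-05). In the list of genes with ADP binding, a property of immune receptors of this type, 2 of 7 tested genes were called higher and 1 lower. The highest, Pyun16G008910, had 13.2, 11.5 and 11.3 FPKM in *P. qamdoensis*, against 3.81, 5.31 and 4.87 FPKM in *P. schneideri* (log2 fold change 1.21, SE 0.14, adjusted p = 0.00152). Without *P. qamdoensis* library 1 its adjusted p was 0.0137.

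**Figure D3:**
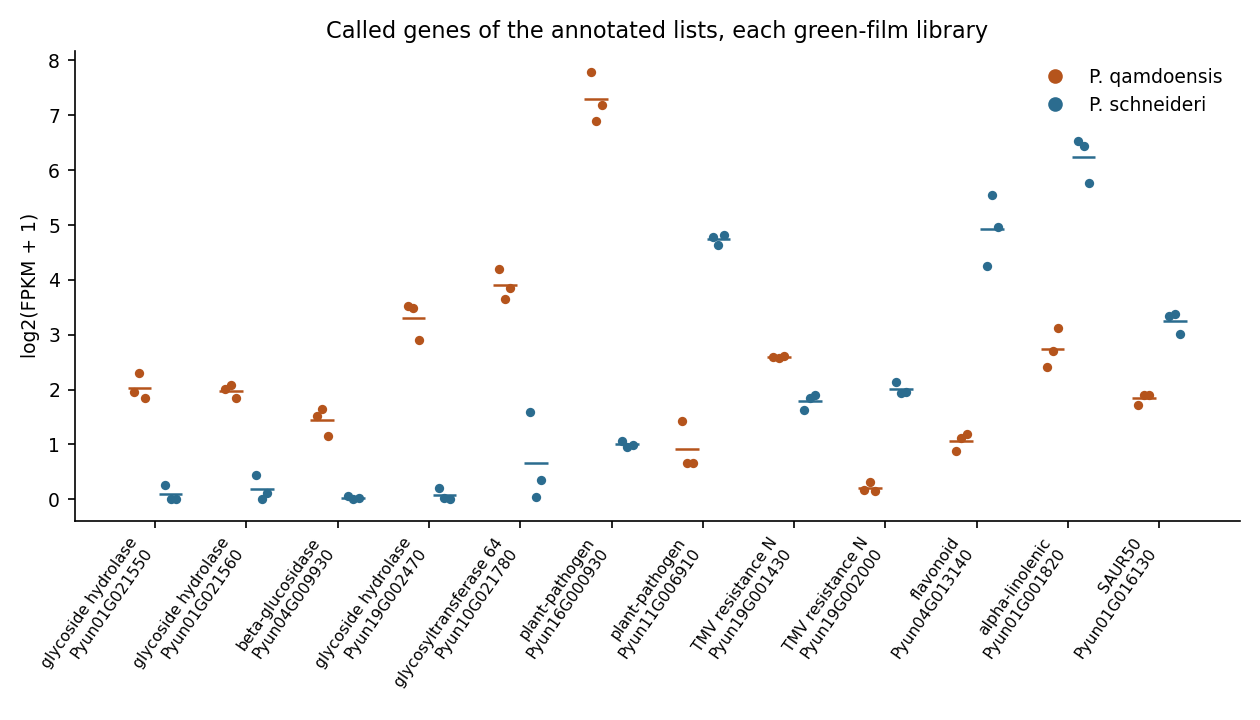
The log2(FPKM + 1) of 12 called genes of the annotated lists in each GF library, *P. qamdoensis* (brown) left of *P. schneideri* (blue); points are libraries, bars are means, and list names stand in for genes known only by pathway. The species do not overlap in any of the 12 genes, and in the 4 hydrolases *P. schneideri* lies close to 0.

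Most genes of flavonoid biosynthesis had lower values in *P. qamdoensis*. Flavonoids are phenolic compounds that screen ultraviolet light and color leaves and flowers. All 33 genes of the list were tested, 2 were called higher and 3 lower, and 24 of 33 had negative log2 fold changes (median -0.59, against 0.01 over all genes). The median was -0.89 without *P. schneideri* library 1 and -0.40 without library 2, and the library medians had an SD of 0.46. Summed over the list, levels were 537, 464 and 620.3 FPKM in *P. qamdoensis*, against 547, 864 and 1138 FPKM in *P. schneideri*, so that *P. schneideri* library 1 lay within the range of *P. qamdoensis*. In 13 of the 33 all *P. qamdoensis* libraries lay below all *P. schneideri* libraries, a pattern found in 14.4% of all tested genes. Pyun04G013140 had 0.852, 1.17 and 1.27 FPKM in *P. qamdoensis*, against 17.996, 45.9 and 30.2 FPKM in *P. schneideri* (log2 fold change -3.86, SE 0.30, adjusted p = 0.000182). Pyun18G009580 was the highest of those called, with 3.43, 1.55 and 3.65 FPKM in *P. qamdoensis*, against 0.232, 0.154 and 0.618 FPKM in *P. schneideri* (log2 fold change 1.51, SE 0.26, adjusted p = 0.00872). That call was kept only without *P. qamdoensis* library 2, and the adjusted p ran from 0.0105 to 0.049 in the other 5 fits with 1 library left out.

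Other metabolic pathways held single large differences. In alpha-linolenic acid metabolism, the route to jasmonate, 0 of 11 tested genes were called higher and 2 lower. Pyun01G001820 had 4.34, 5.55 and 7.66 FPKM in *P. qamdoensis*, against 91.6, 86.0 and 53.3 FPKM in *P. schneideri* (log2 fold change -3.50, SE 0.24, adjusted p = 0.000107). In cysteine and methionine metabolism 2 of 20 tested genes were called higher and 1 lower. Pyun05G003710 had 129, 55.5 and 140.0 FPKM in *P. qamdoensis*, against 9.06, 6.03 and 6.68 FPKM in *P. schneideri* (log2 fold change 3.63, SE 0.33), and Pyun01G007880 fell, with 10.6, 14.1 and 13.1 FPKM in *P. qamdoensis*, against 46.1, 54.2 and 56.7 FPKM in *P. schneideri* (log2 fold change -1.98, SE 0.14).

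ABC transporters, which move compounds across membranes, had 2 of 10 tested genes called higher and 1 lower. Pyun15G006430 had 18.2, 5.26 and 12.7 FPKM in *P. qamdoensis*, against 0.444, 0.765 and 1.36 FPKM in *P. schneideri* (log2 fold change 2.70, SE 0.39, adjusted p = 0.00398). Its adjusted p was 0.0151 and 0.0244 without *P. qamdoensis* library 1 or 3 and 0.0105 and 0.024 without *P. schneideri* library 1 or 2. Pyun01G030050 had 3.48, 4.70 and 3.74 FPKM in *P. qamdoensis*, against 13.1, 18.3 and 16.8 FPKM in *P. schneideri* (log2 fold change -1.77, SE 0.16). Glycolysis and nitrogen metabolism had 0 genes called higher, with 2 of 7 and 1 of 8 tested genes called lower. Their lowest called genes, Pyun02G009180 and Pyun12G003330, both had log2 fold changes of -0.89, and each was called in only 1 of the 6 fits with a library left out, that without *P. schneideri* library 1, with adjusted p-values of 0.0127 to 0.0313 for Pyun02G009180 and 0.0102 to 0.0211 for Pyun12G003330 in the others. Phenylpropanoid biosynthesis had 1 call among 13 tested genes, the hydrolase Pyun19G002470. No gene was called in aromatic amino acid biosynthesis (10 tested), brassinosteroid biosynthesis (6), circadian rhythm (8), photosynthesis (6), antenna proteins (3) or oxidative phosphorylation (6). In lists this small, 0 calls are near the 5.52% called over all tested genes.

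Of 14 tested auxin, gibberellin and cytokinin genes 1 was called, which is near the 5.52% of all tested genes. Among the 3 auxin genes, the auxin-responsive SAUR50 (Pyun01G016130) fell, with 2.30, 2.73 and 2.75 FPKM in *P. qamdoensis*, against 9.14, 9.46 and 7.05 FPKM in *P. schneideri* (log2 fold change -1.40, SE 0.15, adjusted p = 0.000888). SAUR genes are induced early by auxin and promote cell expansion. The auxin-induced protein 6B gene (Pyun09G012660, named after its values were seen) had 0.429, 0.808 and 0.473 FPKM in *P. qamdoensis*, against 2.94, 2.24 and 1.10 FPKM in *P. schneideri*, without overlap, and missed the threshold (adjusted p = 0.0443). Without *P. schneideri* library 3 its adjusted p was 0.00853.

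None of 7 gibberellin genes and none of 4 cytokinin genes was called. The gibberellin receptor gene GID1b (Pyun02G020140, named after its values were seen) had 13.9, 6.69 and 17.3 FPKM in *P. qamdoensis*, against 1.21, 1.44 and 3.88 FPKM in *P. schneideri*, without overlap (log2 fold change 2.11, SE 0.39, adjusted p = 0.0118). It passed the threshold without *P. qamdoensis* library 2 (0.00692) or *P. schneideri* library 3 (0.00488). The other 6 gibberellin genes had log2 fold changes between -0.28 and 0.54, and the cytokinin genes, histidine kinases and phosphotransfer proteins, between -0.39 and 0.14. Of the 5 MYB-type regulators none was called, with log2 fold changes of -0.70 to 0.66.

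The antenna genes and 3 genes of chlorophyll breakdown varied more among the *P. schneideri* libraries than between the species. All 3 antenna genes had their highest value of the 6 libraries in *P. schneideri* library 1, and their lowest in *P. schneideri* library 3. The 2 STAY-GREEN 1 genes and the pheophorbide a oxygenase gene, whose products take part in the breakdown of chlorophyll as leaves age, ran the other way. They summed to 469, 294 and 511 FPKM in *P. qamdoensis*, against 147, 301 and 718 FPKM in *P. schneideri*. Each of the 3 was lowest in *P. schneideri* library 1 and highest in library 3. These 3 were set apart from the 6 chlorophyll genes outside the planned lists. Chlorophyllase-1 of the same 6 did not follow them, at low levels. It had 0.886, 0.192 and 0.900 FPKM in *P. qamdoensis*, against 0.510, 0.342 and 0.437 FPKM in *P. schneideri*. The median log2 fold change of the 6 chlorophyll genes was 0.29 with all libraries, 0.039 without *P. schneideri* library 1 and 0.69 without library 3, and 0.51 and 0.15 without *P. qamdoensis* library 2 or 3. For the antenna genes it was -0.22 with all libraries, 0.25 without *P. schneideri* library 1, -0.38 and -0.52 without library 2 or 3, and -0.14 without *P. qamdoensis* library 3, so the direction rested on *P. schneideri* library 1.

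A separate pattern marked *P. schneideri* library 2. The 6 genes of the photosynthesis list summed to 27.01, 56.2 and 27.5 FPKM in *P. qamdoensis*, against 31.8, 270.4 and 58.1 FPKM in *P. schneideri*. The 6 genes of the oxidative phosphorylation list, 3 of them shared with the photosynthesis list, summed to 26.97, 45.2 and 33.7 FPKM in *P. qamdoensis*, against 30.2, 129 and 31.3 FPKM in *P. schneideri*. Every gene of both lists was highest in *P. schneideri* library 2. The median log2 fold change of the photosynthesis list was -0.94 with all libraries and -0.30 without library 2, and all 6 genes were negative with it and 5 without. The part of these library differences in other results was not tested beyond leaving out each library.

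**Figure D4:**
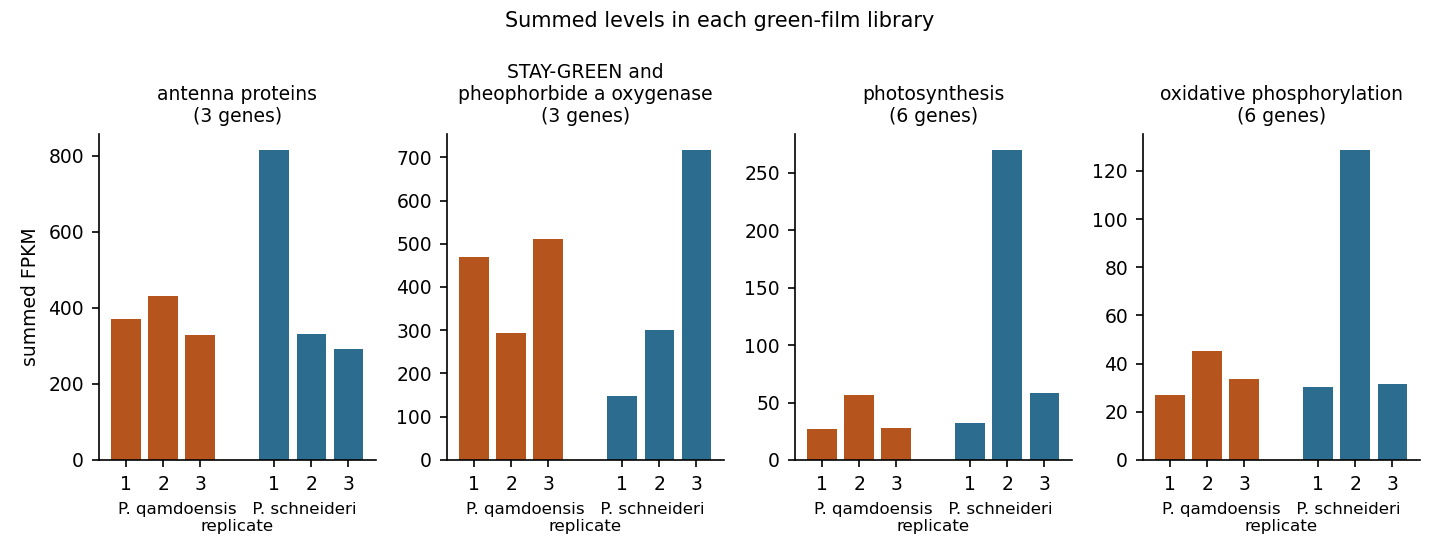
Summed FPKM of 4 groups of genes in each GF library, replicates 1 to 3 of *P. qamdoensis* (brown) left of those of *P. schneideri* (blue), each panel with its own linear axis from 0. The antenna sum is highest in *P. schneideri* library 1 (817 FPKM), the STAY-GREEN and pheophorbide a oxygenase sum in library 3 (718 FPKM), and the photosynthesis (270.4 FPKM) and oxidative phosphorylation (129 FPKM) sums in library 2. The STAY-GREEN and pheophorbide a oxygenase group is a part of the chlorophyll list, set apart outside the planned lists.

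The species differences under GF were then compared with those under WF and BF, which use other libraries of the same species mapped to the same genome. Under WF 2410 of 24136 tested genes were called (9.99%), and under BF 103 of 24385 (0.422%). The WF count was 1456 without *P. qamdoensis* WF library 3 and 1398, 1240 and 1524 without *P. schneideri* WF libraries 1, 2 and 3. Of the 1297 genes called under GF and tested under WF, 99.4% differed in the same direction under WF, against 71.3% of the genes not called under GF. Of the 1297, 1031 were called in the same direction under WF, which is 79.5% of these GF calls and 44.1% of the WF calls among genes tested under GF. None was called in the opposite direction.

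Under BF the direction was shared by 94.8% of the 1270 genes called under GF and tested there, against 63.2% of those not called. Only 93 of the 1270 were called, 7.32% of these GF calls and 90.3% of the BF calls. The BF count was 455, 58 and 43 without *P. qamdoensis* BF libraries 1, 2 and 3, and 5 without any 1 of the *P. schneideri* BF libraries. Of 1262 genes called under GF and tested under all films, 1192 kept their direction under all 3. In 738 (58.5%) the species also did not overlap under any film, which every called gene already met under GF. Taken singly, 95.5% of the GF calls were without overlap in the GF direction under WF and 59.7% under BF. Over all genes tested under GF and that film, the shares were 35.9% and 19.6%. Over the GF calls, the median species difference in the GF direction was 1.36 under GF and 1.30 under WF for the 1297 genes, and 1.37 under GF and 1.10 under BF for the 1270. Because genes and direction were picked by their GF values, that choice can raise the GF medians alone. These medians therefore do not show that the differences were smaller under WF or BF.

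**Figure D5:**
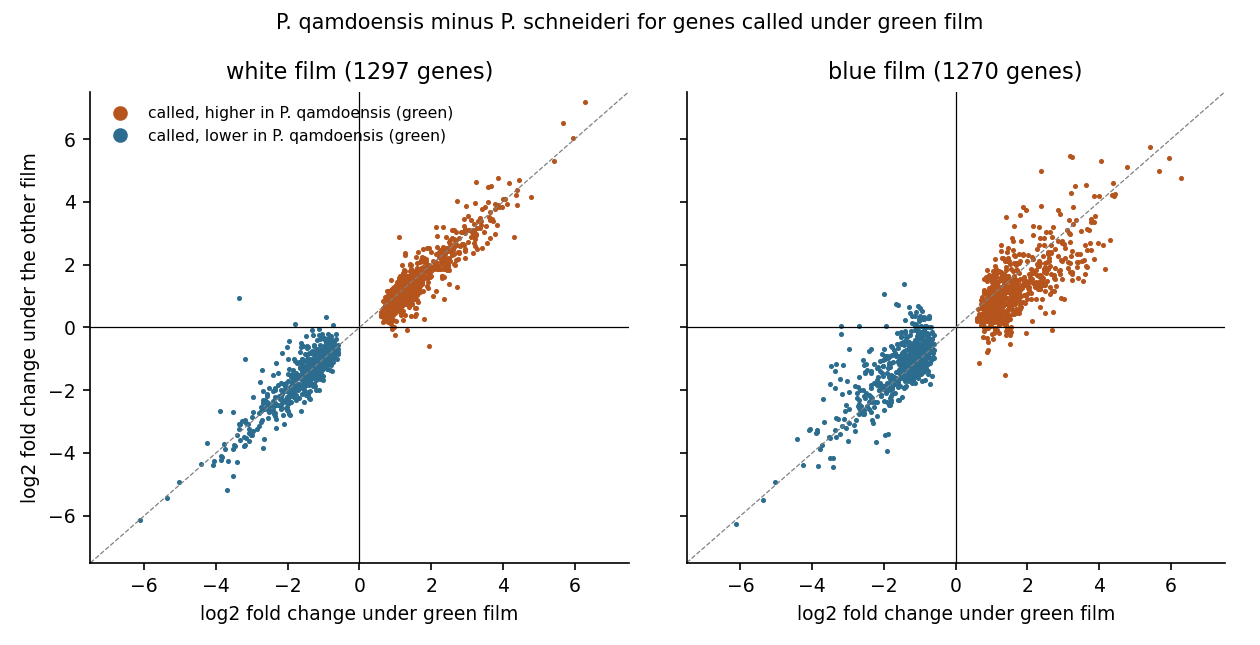
Log2 fold change (*P. qamdoensis* minus *P. schneideri*) of genes called under GF, with the value under GF on the x axis and under WF (left, 1297 genes) or BF (right, 1270 genes) on the y axis; the dashed line marks equal values. Brown genes were higher and blue genes lower in *P. qamdoensis* under GF, and nearly all points lie in the matching quadrants, with more scatter under BF.

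Among the genes described above, some kept their direction under each film and others did not under BF. Pyun10G018510 had log2 fold changes of -6.13 under GF, -6.15 under WF and -6.26 under BF. Pyun16G000930 had 6.29 under GF, 7.19 under WF and 4.75 under BF, and was not called under BF (adjusted p = 0.22), where it had 1.75, 145 and 305 FPKM in *P. qamdoensis*, against 0.776, 0.962 and 0.794 FPKM in *P. schneideri*. The low value is that of *P. qamdoensis* BF library 1, which also stood apart for Pyun01G001820, with 167 FPKM against 6.40 and 10.2 FPKM in BF libraries 2 and 3, and for Pyun16G001880, with 150.2 FPKM against 5.64 and 14.3 FPKM. For the hydrolase Pyun19G002470 the values were 3.23 under GF, 3.97 under WF and 5.43 under BF, and it was called under each film. SAUR50 had -1.40 under GF, -1.09 under WF and -0.17 under BF, and was called under the first 2. Here too *P. qamdoensis* BF library 1 stood apart, with 11.3 FPKM, above every *P. schneideri* BF library. *P. qamdoensis* BF libraries 2 and 3 lay below all of the *P. schneideri* ones. The ABC transporter Pyun15G006430 had 2.70 under GF, 3.04 under WF and -0.094 under BF. Its BF levels were 0.0398, 1.84 and 4.37 FPKM in *P. qamdoensis*, against 0.786, 3.44 and 1.43 FPKM in *P. schneideri*. The lowest is again *P. qamdoensis* BF library 1. The BF differences of SAUR50 and Pyun15G006430 were not tested without that library. The nitrogen metabolism gene Pyun12G003330 had -0.89 under GF, -0.85 under WF and 0.27 under BF. The abundant gene with up to 1619 FPKM described above had -1.99 under GF, -1.02 under WF and 1.07 under BF, and neither of the last 2 values was called. Its libraries were far apart within a species. Under WF it had 270, 1490 and 1390 FPKM in *P. qamdoensis*, against 1738, 1601 and 1688 FPKM in *P. schneideri*. Under BF it had 1504, 1652 and 471 FPKM in *P. qamdoensis*, against 352, 361 and 994 FPKM in *P. schneideri*. None of the 8 light signaling genes was called under any film. HY5 and COP1 had positive values under GF and negative ones under WF and BF. Both PIF3 genes were negative under GF and BF and positive under WF, and PIF4 was negative under BF alone. CRY1, HYH and PHYB kept their sign under each film. In none of these genes did the change between GF and another film pass the test given below.

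Whether a species difference itself changed with the film was tested over all 18 libraries and 24273 genes. Between GF and WF 1 gene passed (0.00412%), with 804 at an unadjusted p below 0.05. The spread of a gene came from all 18 libraries, so a BF library that stands apart also widens the SE here. For Pyun01G001820 the SE was 1.09 for this difference and 0.24 for the species difference under GF. No BF library was left out of this test, so the single call does not show that other species differences are alike under GF and WF. Between GF and BF 0 passed, with 2407 at an unadjusted p below 0.05. That count was 120 without *P. qamdoensis* BF library 2, 2 without BF library 1 and 1 without BF library 3. The gene that passed between GF and WF, Pyun06G019200, had no annotation and was expressed in *P. qamdoensis* almost alone. Under GF it had 1.30, 1.05 and 1.08 FPKM in *P. qamdoensis*, against 0, 0 and 0.0172 FPKM in *P. schneideri*, and under WF 5.76, 7.77 and 6.40 FPKM in *P. qamdoensis*, against 0.0838, 0 and 0.0303 FPKM in *P. schneideri*. The species difference was 1.78 smaller on the log2 scale under GF than under WF (SE 0.21, adjusted p = 0.00699). In 10 of the 12 fits that left out 1 GF or WF library no gene passed, while 3 passed without *P. qamdoensis* WF library 1 and 5 without *P. schneideri* WF library 3. Among genes called under GF, 1 separated the species in the opposite direction under WF and 2 under BF, and none of these changes passed the test of the difference.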

How the data were processed

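The values are FPKM as deposited by the authors, in a single table of 39194 genes. Of these, 37562 carry identifiers of *P. yunnanensis* and 1632 are new genes. The submitters' processing notes name HISAT2 and StringTie, without versions. All columns were matched to samples by their labels. The reads behind single FPKM values are unknown and low values show no whole-read steps, so no counting error is given and the spread between 3 libraries per species is the only measure of precision.

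For each film, limma 3.58.1 (R 4.3.3) was run on log2(FPKM + 1), with 1 mean per species, eBayes with trend and Benjamini-Hochberg adjustment over every gene averaging 0.5 FPKM or more in the libraries fitted. WF and BF were fitted likewise on their own 6 libraries, and film differences of the species difference on all 18, with 6 group means. The fold change of 1.5 and the adjusted p below 0.01 follow the study's methods, which name no test. Counts and plots were made in Python 3.11.15 (pandas 2.3.3, matplotlib 3.10.9, scipy 1.17.1).

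The rule names the called ones of the study's annotated lists and all 8 light signaling genes, for pathway lists the called genes of largest change in each direction, over all genes the 2 highest and 2 lowest called genes whose libraries do not overlap, those called for a film difference, and the 2 highest and 2 lowest called at a mean of at least 50 FPKM in both species, given without identifier because nothing annotates them. The comparison and the lists were chosen with earlier results of these data known. Alternatives were another pseudocount, filters, scalings, spread estimates, thresholds, library weights, the replicate number as a block, and leaving out each library. No genome or sequence was used.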

Additional observations from a re-analysis of the deposited data

Results flagged for a closer look

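The species difference of Pyun06G019200 differed between GF and WF by -1.78 on the log2 scale (GF minus WF), the only gene to pass a test of that difference over 24273 genes (adjusted p = 0.00699). In *P. qamdoensis* it had 1.30, 1.05 and 1.08 FPKM under GF and 5.76, 7.77 and 6.40 FPKM under WF, while its highest value in any *P. schneideri* library of the 3 films was 0.0838 FPKM. Under BF it had 0.0591, 0.475 and 0.423 FPKM in *P. qamdoensis*, and the difference between GF and BF did not pass (0.77, adjusted p = 0.278). With groups of 3 libraries, single libraries that stand apart were not tested for.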

How the results depend on the processing

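No alternative changed the direction of any of the 1320 genes called under GF. For most alternatives this was fixed in advance, because the libraries of these genes do not overlap between the species. The count of 1320 moved to 2591 at an adjusted p below 0.05, to 528 with a filter of at least 5 FPKM and to 3194 with library weights, and lay between 557 and 1432 with 1 library left out. The share called higher was 53.9%, and 46.8% with all 18 libraries in the fit. Under WF the 2410 calls became 1425 with all 18 libraries and 1240 to 2657 with 1 library left out, and under BF the 103 became 1339 with all 18 libraries, 5 with the replicate block and 5 to 455 with 1 left out. Median-ratio scaling split the WF calls 1190 higher to 1164 lower, against 996 to 1414. The single GF against WF call became 2 at an adjusted p below 0.05, 9 with library weights, 0 with a pseudocount of 0.1, 0 with the replicate block and 0 to 5 with 1 library left out. The GF against BF count of 0 ranged from 0 to 120 with 1 library left out. The COP1 difference ranged from -0.092 to 0.33 with 1 GF library left out, and was negative only without *P. schneideri* library 1. Replicate numbers are shared between species, and the deviations of same-numbered libraries correlated at -0.20, 0.18 and 0.23. With 3 libraries per species these values cannot decide whether the numbers pair the plants. The fit with the replicate number as a block called 904 genes under GF, 842 of them among the 1320. Medians of the gene lists without each GF library were added after seeing the data. The causes of these changes were not tested.

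Of the 29 called genes that the naming rule selects, 15 were called under each alternative that gave a value, 8 were not called with all 18 libraries in the fit, 13 not in some fit with 1 library left out and 7 not under another setting.

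Depth is unknown, so low FPKM values carry a counting error that cannot be stated. Mapping to another species cannot be told apart from expression, and the duration and origin of the *P. schneideri* plants are unknown.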
